A study of Mus musculus with 6 samples.

Results

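The genes described here are 9 members of the signalling lymphocytic activation molecule (SLAM) system of mouse leukocytes: the receptors Slamf1, Slamf7, Slamf8, Slamf9, Cd48, Cd84, Cd244 (Cd244a in the gene table) and Ly9, and the intracellular adaptor Sh2d1b1. They were taken by name from 19938 genes that had a probe set naming no other gene. Each of the 9 had 1 such probe set, so the highest mean level, meant to settle ties, decided nothing. The list was selected on levels and heme differences of these same 6 arrays, since earlier results were known when it was made, so every test below is a description of its members and no independent support. RNA came from the adherent cells of marrow cultures, all from mice of the genotype Spic(igfp/igfp), kept in GM-CSF (20 ng/ml), under which macrophages and dendritic cells grow out. From day 6 they had 80 µM heme (the unit is printed as µm in the labels) or its vehicle, NaCl with NH4OH, for 6, 24 or 72 h. There was 1 array for each of the 6 combinations, so a single time point has no replicate check, neighbouring levels of a gene have no spread to be set against, and the number of arrays limits the precision. The labels do not say whether arrays came from separate mice or cultures, and neither the age of the mice nor the content of the igfp allele is stated in them.

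SLAM receptors are immunoglobulin-type surface proteins of blood cells, and most of them bind a copy of themselves on a neighbouring cell, while CD244 binds CD48. Several carry tyrosine motifs in their cytoplasmic tails that recruit small SH2-domain adaptors, of which SAP (Sh2d1a) is best known in T cells and EAT-2 (Sh2d1b1) in natural killer cells and myeloid cells. CD48 is held in the membrane by a lipid anchor, and SLAMF8 and SLAMF9 have short tails without these motifs. In macrophages and dendritic cells the family takes part in adhesion, phagocytosis and control of the oxidative burst.

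Values are log2 expression levels. A level below 5.37, the median of all values in the table, was not shown to be above background, and a gene was kept for the fit when at least 1 array reached it, as 11516 genes did. Of the members, 7 lay above it on all 6 arrays. Slamf1, a receptor of lymphocytes, stem cells and activated macrophages, lay below it throughout, with levels of 3.61, 3.50 and 3.79 at 6, 24 and 72 h with heme and 3.48, 3.38 and 3.81 with vehicle, and was not tested. Slamf8 reached it on the 6 h heme array alone. Its levels were 5.43, 5.05 and 5.28 with heme and 4.79, 4.78 and 5.33 with vehicle, so a difference at 6 h is bounded only at 0.06 or more, and its mean difference did not pass (limma, adjusted p = 0.631). Array medians ran from 5.34 to 5.45, with the highest on the 6 h heme array.

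Macrophage markers were present, with 10 of 10 above the filter on all arrays. So were 3 of 8 stromal and endothelial cell markers, Dcn, Col1a1 and Col1a2, while Pdgfrb, Cdh5 and Pecam1 lay below it on every array. Of 10 mast cell and basophil markers 9, and of 7 measured stem and progenitor cell markers 5, were below it on every array. Of 8 measured T cell markers 7, and of 10 natural killer cell markers 9, were below it on every array, and Cd3e, Cd3d, Cd3g, Ncr1 and Klrb1c were among them. The remaining T cell marker, Cd28, was above it throughout. Of 9 measured B cell markers 5 were below it on every array, including Cd79a, Ms4a1 and Pax5, while Cd22 and Cd79b were above it throughout. The mean level of the natural killer list ranged from 3.81 to 3.96 with heme and from 3.74 to 3.88 with vehicle. That of the T cell list ranged from 4.79 to 4.83 with heme and from 4.78 to 4.87 with vehicle, and that of the B cell list from 4.98 to 5.05 with heme and from 4.85 to 5.12 with vehicle. The 10 neutrophil markers had mean levels of 7.94, 7.41 and 6.16 at 6, 24 and 72 h with heme and 7.68, 6.32 and 5.99 with vehicle, and 1 of them, Csf3r, rose with heme (limma, adjusted p = 0.00662). The macrophage list had mean levels of 9.93, 10.30 and 10.71 with heme and 10.08, 10.26 and 10.44 with vehicle, and 1 of the 10, Cd14, rose (limma, adjusted p = 0.00825). The dendritic cell list had mean levels of 7.16, 7.10 and 6.66 with heme and 6.98, 6.72 and 6.59 with vehicle. Of its 10 genes 5 lay above the filter on all arrays. Flt3, Zbtb46 and Cd209a lay below it on every array. Of the 7 tested 1, Ccr7, rose (limma, adjusted p = 0.0279). The part of these cells in the results below was not tested. In these bulk samples fewer cells of a type and less RNA per cell cannot be told apart.

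**Figure D1:**
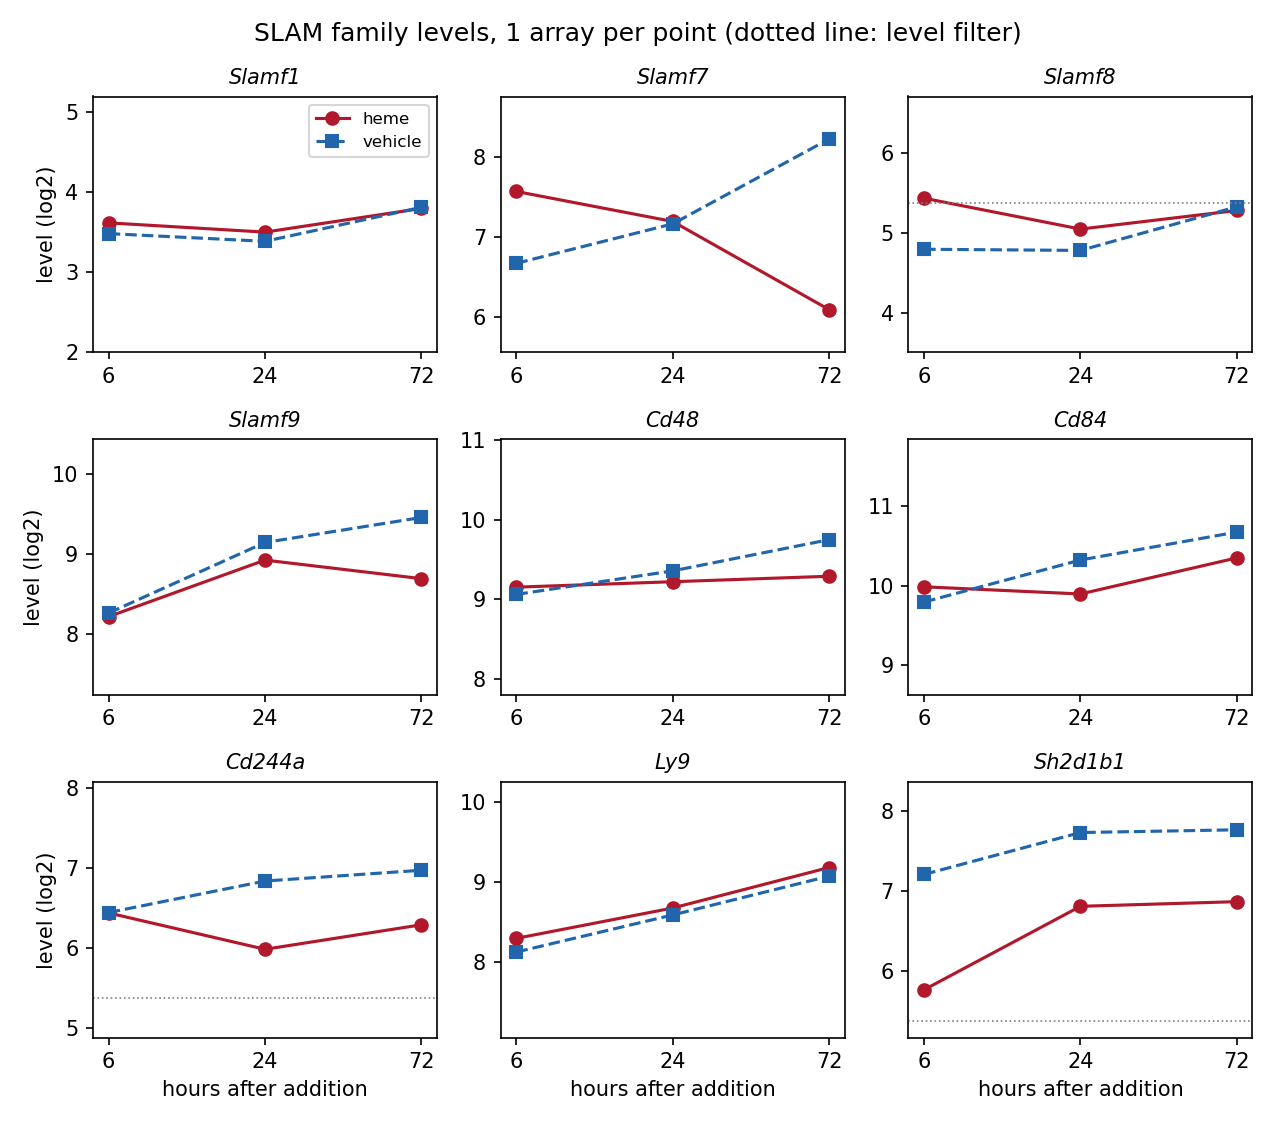
Level of each SLAM family member in log2 units against hours after addition of heme (circles, solid lines) or vehicle (squares, dashed lines). Each point is 1 array and each panel spans the same number of log2 units. The dotted line marks the filter at 5.37 and falls within the panels of Slamf8, Cd244a and Sh2d1b1 only. Slamf1 lies wholly below the filter, though its panel shows no line. Slamf7 crosses between the treatments and Sh2d1b1 lies lower with heme at every time point.

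With heme, the adaptor Sh2d1b1 was lower at all 3 time points, Slamf7 was higher at 6 h and much lower at 72 h, Cd244, Slamf9, Cd48 and Cd84 were lower at 24 and 72 h, and Ly9 lay close to vehicle throughout. Over the 3 time points 1 of the 8 members tested, Sh2d1b1, fell and 0 rose in limma (adjusted p below 0.05 over all 11516 genes); of all genes tested, 0.59% fell and 1.13% rose (1.72% either way). At an unadjusted p below 0.05 there were 2 members, Sh2d1b1 and Cd244, both lower with heme, beside 10.6% of all genes.

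Sh2d1b1 encodes EAT-2, the adaptor that links the tyrosine motifs of SLAM receptors to downstream signalling. Its level was 5.76, 6.81 and 6.87 at 6, 24 and 72 h with heme, against 7.21, 7.73 and 7.76 with vehicle. Every heme array was below every vehicle array; the treatments separated in this direction in 5.85% of the genes kept. The differences correspond to levels 2.72-fold, 1.90-fold and 1.87-fold lower with heme. Averaged over the time points, Sh2d1b1 fell by 1.09 ± 0.31 on the log2 scale (SD, n = 3 time points; 95% interval -1.44 to -0.74; limma, adjusted p = 0.0106). At 6 h 11 of 11516 genes, Sh2d1b1 included, were as low relative to vehicle or lower (0.0955%), at 24 h 72 and at 72 h 94. Time points are not replicates. For every member tested, p and interval used a spread taken mostly from all genes (2 residual and 7.17 prior degrees of freedom). They thus show only in part how steady the difference of Sh2d1b1 itself was. Without the 24 h pair of arrays the call was lost (limma, adjusted p = 0.169), and likewise without the time term (adjusted p = 0.484); over all alternatives its adjusted p ran from 0.000342 to 0.484.

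The paralog Sh2d1b2, which encodes the related rodent adaptor ERT, lay below the filter on all 6 arrays, with levels of 2.76, 3.67 and 3.21 with heme and 3.87, 3.87 and 4.30 with vehicle. Whether RNA of one gene also binds the probe set of the other was not tested. The genes whose levels over the 6 arrays followed Sh2d1b1 most closely were the spliceosome gene Snrpb2 (Pearson r = 0.9951), Lbh (0.9948) and the kinase gene Stk24 (0.9946), out of 10798 protein-coding genes compared, of which 246 had an r above 0.9. These arrays share treatment and time, and with 6 points such values describe the pattern only. Lbh differed by -0.86, -0.64 and -0.46 at 6, 24 and 72 h, and Snrpb2 by -0.24, -0.13 and -0.11.

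Slamf7 (also called CRACC) is a self-binding receptor that macrophages use in phagocytosis of blood cells. Its level was 7.57, 7.19 and 6.09 at 6, 24 and 72 h with heme, against 6.67, 7.16 and 8.22 with vehicle. Levels were lower at each later time with heme and higher at each later time with vehicle, and they met at 24 h. Heme cultures were thus 1.87-fold higher at 6 h, level with vehicle at 24 h (0.03 on the log2 scale) and 4.39-fold lower at 72 h. Only 4 other genes, namely Bex1, Gpx3, Klra17 and Ifi27l2a, were as low or lower at 72 h, where 0.608% of genes were at least 2-fold lower. Of these 4, Bex1 reached the filter on 3 of the 6 arrays, and Gpx3, Klra17 and Ifi27l2a on all 6. At 6 h 160 genes, Slamf7 included, were as high or higher. The heme minus vehicle difference moved by -3.03 on the log2 scale between 6 and 72 h, the largest downward move of the 11516 genes, ahead of the itaconate enzyme Acod1 (-2.95) and the cytokine Il1a (-2.57). Because the directions oppose, the mean over time was -0.40 ± 1.56 (SD, n = 3 time points) and did not pass (limma, adjusted p = 0.871). Without the 6 h pair it was -1.05, the mean of 0.03 at 24 h and -2.13 at 72 h, and passed (limma, adjusted p = 0.00235). That fit had 1 residual and 46.9 prior degrees of freedom, so this p hardly reflects the spread of Slamf7 itself. Without the 72 h pair the mean turned to 0.46 (limma, adjusted p = 0.437). Over all alternatives adjusted p ran from 0.00235 to 0.997.

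**Figure D2:**
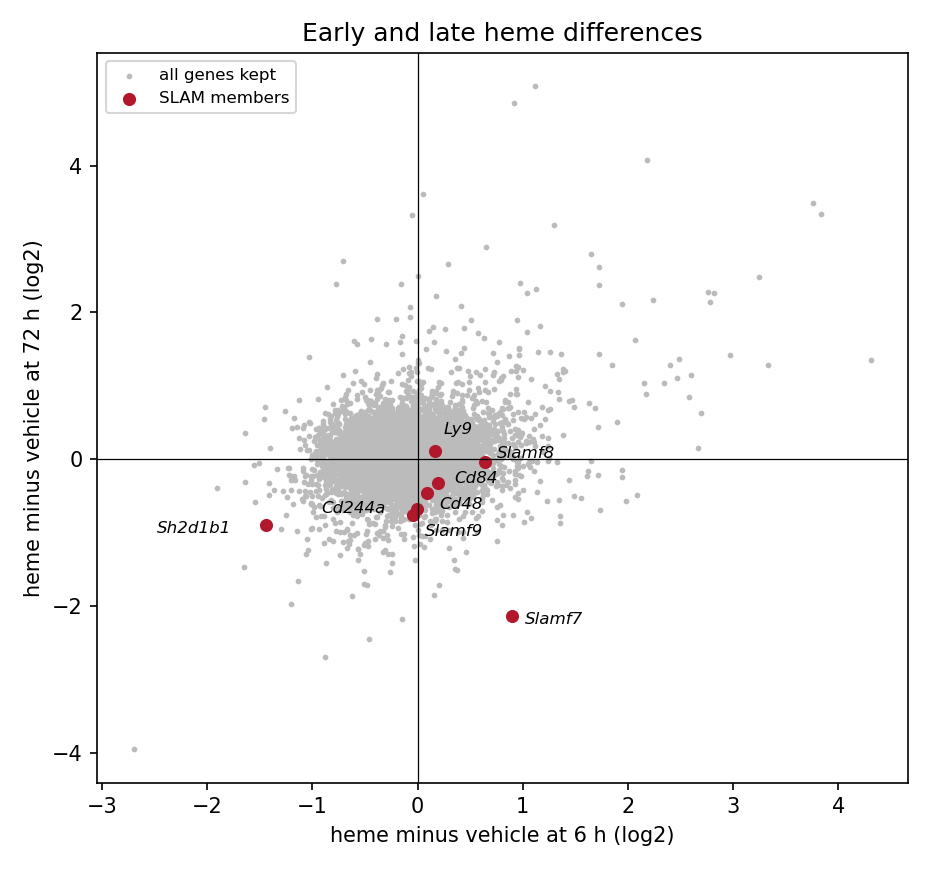
Heme minus vehicle difference at 72 h against that at 6 h, both in log2 units, for 11516 genes (grey) and the 8 tested SLAM members (red). Slamf7 stands alone at 0.90 and -2.13, and Sh2d1b1 is low on both axes at -1.44 and -0.90.

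Cd244, the receptor for CD48 (also called 2B4), had levels of 6.44, 5.98 and 6.29 at 6, 24 and 72 h with heme, against 6.44, 6.83 and 6.97 with vehicle. The highest heme level lay just below the lowest vehicle level, both at 6 h, and the treatments were apart afterwards, with heme 1.81-fold lower at 24 h and 1.61-fold lower at 72 h. Its mean difference was -0.51 ± 0.45 (SD, n = 3 time points; 95% interval -0.92 to -0.11) and did not pass over all genes (limma, adjusted p = 0.281). Without the 6 h pair it did (limma, adjusted p = 0.0036), again with 1 residual and 46.9 prior degrees of freedom. Over its alternatives adjusted p ran from 0.0036 to 0.992. At 24 h 0.816% of the genes kept were as low or lower.

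Promoter sequences are shown for Sh2d1b1, Slamf7 and Cd244, the members with the largest heme differences, so that the letters can be set beside their patterns. Each runs from 250 bases before to 50 bases from the transcription start, 5′ to 3′ on the gene's strand, as RefSeq gives it for GRCm38.p6. Capitals mark GAGGAA, the core bound by PU.1-type factors such as SPI-C, and TGANTCA, the AP-1 site, on either strand. The positions are chr1:170277068-170277367 (plus strand) for Sh2d1b1, chr1:171648950-171649249 (minus strand) for Slamf7 and chr1:171558943-171559242 (plus strand) for Cd244a.
Sh2d1b1: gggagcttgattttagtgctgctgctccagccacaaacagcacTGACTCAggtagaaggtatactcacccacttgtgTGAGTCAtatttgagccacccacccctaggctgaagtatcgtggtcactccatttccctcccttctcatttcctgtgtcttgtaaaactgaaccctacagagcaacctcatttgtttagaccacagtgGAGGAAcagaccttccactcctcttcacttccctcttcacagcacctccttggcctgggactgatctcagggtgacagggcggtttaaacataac
Slamf7: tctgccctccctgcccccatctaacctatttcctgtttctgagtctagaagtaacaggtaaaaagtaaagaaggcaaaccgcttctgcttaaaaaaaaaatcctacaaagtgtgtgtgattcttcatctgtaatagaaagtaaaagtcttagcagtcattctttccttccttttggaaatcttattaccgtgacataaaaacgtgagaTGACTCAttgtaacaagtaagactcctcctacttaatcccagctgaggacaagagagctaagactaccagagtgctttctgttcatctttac
Cd244a: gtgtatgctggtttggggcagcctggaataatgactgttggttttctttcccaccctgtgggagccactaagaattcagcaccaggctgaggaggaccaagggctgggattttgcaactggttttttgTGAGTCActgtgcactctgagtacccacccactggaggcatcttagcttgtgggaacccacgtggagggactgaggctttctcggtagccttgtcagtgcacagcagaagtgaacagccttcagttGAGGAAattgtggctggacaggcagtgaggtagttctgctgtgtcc

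TGANTCA was present in 5 of the 8 member promoters in the table (Slamf7, Slamf8, Cd84, Cd244a and Sh2d1b1) and in 7.81% of all 32851 promoters of the same length. In Sh2d1b1 it occurred at -207 and at -173, in Slamf7 at -42 and in Cd244a at -122, counted from the start site at 0. GAGGAA was present in 5 of the 8 (Slamf8, Slamf9, Cd84, Cd244a and Sh2d1b1), beside 28.3% of all promoters, and not in the Slamf7 window. The antioxidant-element core TGACNNNGC was present in 3 of the 8 (12.4% of all promoters), the NF-kB motif in 1, Slamf8 (8.46%), and the STAT motif TTCNNNGAA in 0 (8.3%). None of the TGACNNNGC matches in these promoters overlapped a TGANTCA match. A match describes letters only.

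Cd48, the ligand of CD244, had levels of 9.15, 9.22 and 9.29 with heme, against 9.06, 9.36 and 9.75 with vehicle. Heme levels lay within 0.14 of each other and vehicle levels 0.69 apart, and heme was 1.37-fold lower at 72 h (-0.46). Slamf9, a receptor of macrophages and dendritic cells, had levels of 8.21, 8.92 and 8.69 with heme, against 8.26, 9.14 and 9.46 with vehicle. Its gap was -0.05, -0.22 and -0.77 at 6, 24 and 72 h, or 1.70-fold lower at the last; the 6 h sign turned to 0.02 after a second quantile normalization and 0.05 after cyclic loess. For Slamf9 the mean difference was -0.34 ± 0.38 and for Cd48 -0.17 ± 0.28 (SD, n = 3 time points each), and neither passed (limma, adjusted p = 0.536 and 0.829).

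Cd84, a self-binding receptor of myeloid cells and platelets, had levels of 9.98, 9.89 and 10.35 with heme, against 9.79, 10.32 and 10.67 with vehicle. It was 1.14-fold higher with heme at 6 h and 1.34-fold and 1.25-fold lower at 24 and 72 h, with a mean difference of -0.19 ± 0.33 (SD, n = 3 time points) that did not pass (limma, adjusted p = 0.821). Of 5 measured platelet and megakaryocyte markers 2, Pf4 and Ppbp, rose with heme (limma, adjusted p = 0.00738 and 0.02). The list had mean levels of 7.07, 7.73 and 8.415 with heme and 6.68, 6.33 and 6.77 with vehicle. At 72 h Pf4 and Ppbp differed by 2.40 and 5.08. The other measured markers did not rise with heme: Gp9 lay below the filter on every array and Itga2b reached it on 1. Treml1 had a mean difference of -0.03 (limma, adjusted p = 0.974). The part of such cells was not tested. Ly9, another self-binding receptor, had levels of 8.30, 8.68 and 9.19 with heme, against 8.13, 8.59 and 9.08 with vehicle. Levels were higher at each later time under both treatments, with heme above vehicle by 0.17, 0.09 and 0.11, a mean of 0.12 ± 0.04 (SD, n = 3 time points; 95% interval -0.17 to 0.42; limma, adjusted p = 0.871).

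**Figure D3:**
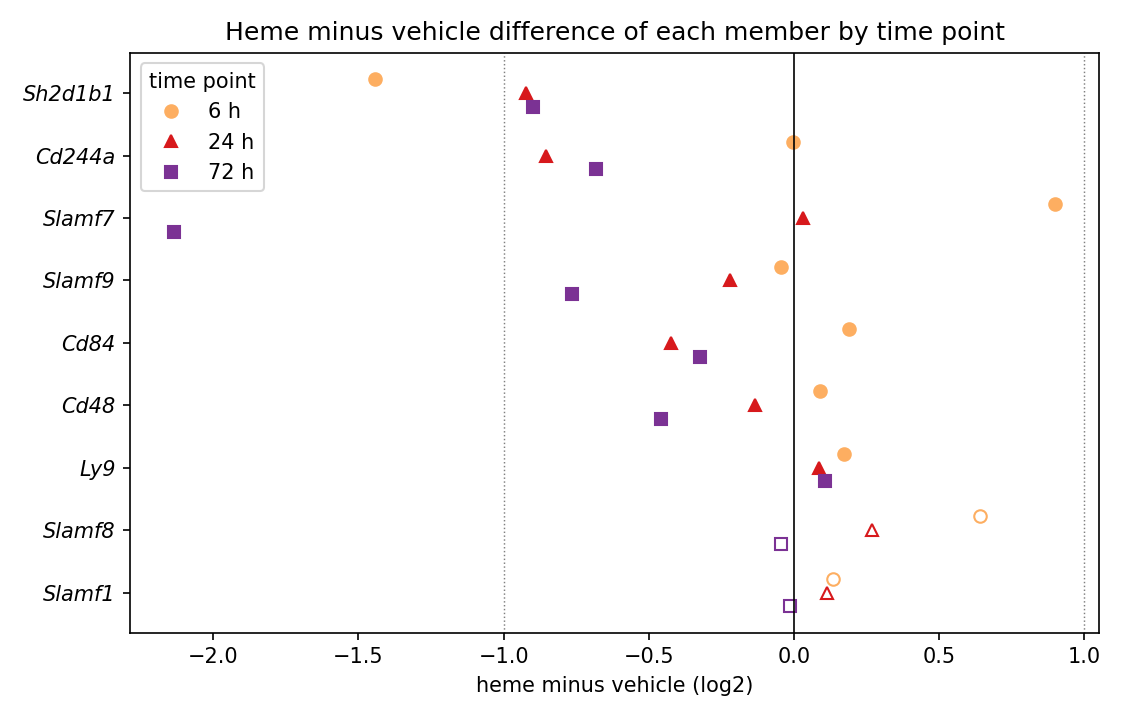
Heme minus vehicle difference in log2 units for each member at 6 h (circles), 24 h (triangles) and 72 h (squares), 1 pair of arrays per symbol, with open symbols for Slamf8 and Slamf1, which had levels below the filter. Dotted lines mark 2-fold; Sh2d1b1 at 6 h (-1.44) and Slamf7 at 72 h (-2.13) lie beyond them.

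Among the 7 members above the filter on all arrays, heme was lower than vehicle in 3 at 6 h, 5 at 24 h and 6 at 72 h, whereas 63.5%, 53.2% and 44.7% of all genes kept were lower at those times. Heme was higher in 4, 2 and 1 of them, beside 36.5%, 46.8% and 55.3% of genes. The genes kept include those that reached the filter on fewer than 6 arrays, so these shares cover a wider set than the 7. Slamf6, a SLAM receptor outside the list that was above the filter on all 6 arrays, was higher with heme by 0.77, 0.29 and 0.27. Lower at all 3 time points were 3 of the 7, Sh2d1b1, Cd244 and Slamf9, beside 17.4% of genes, and higher at all 3 was 1, Ly9, beside 12.8%. The 6 h differences of Cd244 and Slamf9 that this count needs were -0.005 and -0.05, and that of Cd244 turned to 4e-04 after cyclic loess. The treatments separated with heme lower in Sh2d1b1 and Cd244 and with heme higher in none of the 7, beside 5.85% and 5.4% of genes. The median difference of the 7 was 0.09, -0.22 and -0.68 at 6, 24 and 72 h, beside medians of -0.10, -0.02 and 0.03 over all genes kept. Median-centring the arrays moved the 6 h median of all genes to -0.22, and under it Cd48 at 6 h turned to -0.02. At 2-fold or more, Sh2d1b1 was the member past the threshold at 6 h, none was at 24 h, and Slamf7 was at 72 h, in each case lower; the share of genes at least 2-fold lower was 0.669%, 0.486% and 0.608%, and at least 2-fold higher 0.964%, 1.42% and 1.25%. At 6 h this split was 59.0% higher among genes past 2-fold, or 35.1% after median-centring.

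In vehicle cultures all 7 members above the filter had higher levels at 72 h than at 6 h, while 42.2% of the genes kept were higher and 57.7% lower. The genes kept are again a wider set than members above the filter on all arrays. The median difference of the 7 was 0.88 on the log2 scale in vehicle, beside -0.06 over all genes kept. With heme 5 of the 7 were higher at 72 h and 2 lower, where 56% of genes were higher and 44% lower, with a median of 0.36. Under both treatments 5 were higher (28.6% of genes) and none was lower (30.3%). Slamf6, outside the list, changed by 0.01 with vehicle and by -0.49 with heme. Slamf7 and Cd244 were lower at 72 h with heme and higher with vehicle, as were 13.6% of genes. For Slamf7 the 72 h minus 6 h difference was -1.48 with heme and 1.56 with vehicle, and for Cd244 -0.15 with heme and 0.53 with vehicle. Slamf7 was 1 of 3 genes at least 2-fold lower at 72 h than at 6 h with heme and at least 2-fold higher with vehicle (0.0261%), beside the tissue factor gene F3 and Il1a.

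Over both treatments, 3 of 8 members tested rose at 72 h against 6 h and 0 fell, beside 3.06% and 3.53% of all genes (6.59% either way; limma, adjusted p below 0.05). At an unadjusted p below 0.05 there were 4 members, these 3 and Cd84, all higher at 72 h, beside 18.5% of all genes. The treatments are not replicates of the time step. These p-values set the mean change against how far the treatments differed in their course, again with a spread taken mostly from all genes. Ly9 rose by 0.92 (95% interval 0.56 to 1.28; limma, adjusted p = 0.00931), a call that held under all alternatives run, with adjusted p from 0.00573 to 0.0458. Slamf9 rose by 0.84 (limma, adjusted p = 0.0409), with changes of 0.48 with heme and 1.20 with vehicle. Sh2d1b1 rose by 0.83 (limma, adjusted p = 0.0314), with changes of 1.10 with heme and 0.56 with vehicle. Both calls were lost without the 24 h pair (adjusted p = 0.124 for Slamf9 and 0.0956 for Sh2d1b1) and without the treatment term (0.161 and 0.521), and Slamf9's also after cyclic loess (0.0719) and a second quantile normalization (0.0663). Over all alternatives adjusted p ran from 0.0197 to 0.161 for Slamf9 and from 0.023 to 0.521 for Sh2d1b1. Cd84 and Cd48 were higher by 0.62 and 0.41 and did not pass (limma, adjusted p = 0.107 and 0.275). Neutrophil markers moved the other way, with 6 of 10 lower at 72 h and 1 higher (limma, adjusted p below 0.05), and 4 of 10 macrophage markers rose and 0 fell. Of 7 dendritic cell markers tested 3, Dpp4, Ciita and Kmo, fell and 0 rose (limma, adjusted p below 0.05). Of 4 eosinophil markers tested 2, Epx and Prg2, fell and 0 rose (limma, adjusted p below 0.05). Of 4 platelet and megakaryocyte markers tested 2, Pf4 and Treml1, rose and 0 fell. Of 5 stromal and endothelial cell markers tested 1, Dcn, rose and 1, Kdr, fell. Of 2 stem and progenitor cell markers tested 1, Cd34, fell. In the T cell, B cell, natural killer cell, and mast cell and basophil lists 0 rose and 0 fell. Dpp4, Kmo, Epx and Cd34 reached the filter on 2 arrays each, both at 6 h. The neutrophil marker Ly6g reached it on the 6 h vehicle array alone. A fall was thus the only call open to these genes. The neutrophil markers Ngp and Ltf and the endothelial marker Kdr also lay below the filter on both 72 h arrays. The part of these cell types in the SLAM changes was not tested.

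**Figure D4:**
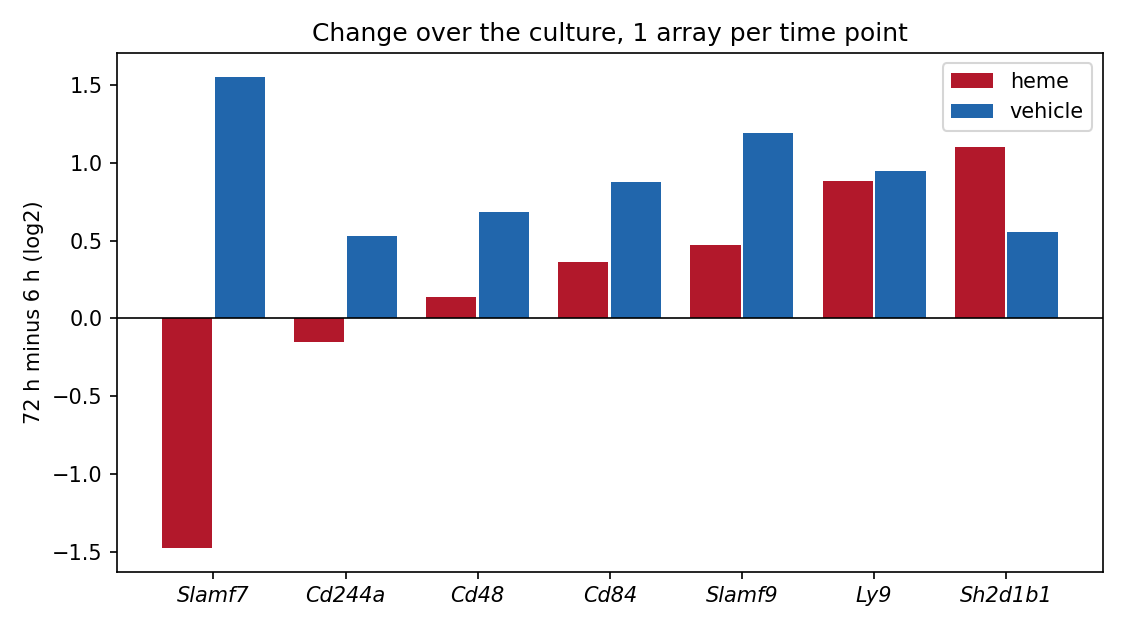
The 72 h minus 6 h difference in level in log2 units for the 7 members above the filter on all arrays, with heme (red, left of each pair) and vehicle (blue, right), each bar the difference of 2 arrays. All 7 vehicle bars are above 0, from 0.53 for Cd244 to 1.56 for Slamf7, and the heme bars of Slamf7 and Cd244 are below 0.

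All 9 genes lie on mouse chromosome 1 in the RefSeq table of GRCm38.p6, and Cd244, Ly9, Slamf7, Cd48, Slamf1, Cd84 and Slamf6 form a run broken by 1 other gene, Tma7-ps. Slamf6, the remaining receptor of the run, had levels of 6.95, 6.53 and 6.46 at 6, 24 and 72 h with heme, against 6.18, 6.24 and 6.19 with vehicle. It was higher with heme at each time, by a mean of 0.44 ± 0.28 (SD, n = 3 time points), and did not pass (limma, adjusted p = 0.268). Differences therefore varied between neighbours: at 72 h Slamf7 was at -2.13 while Ly9 and Cd48, the genes on either side of it, were at 0.11 and -0.46. Outside the run, the junction protein gene F11r differed by a mean of -0.07 and Alyref2 by -0.31, and neither passed (limma, adjusted p = 0.94 and 0.569), while Itln1, Vangl2 and Nhlh1 (means of -0.25, 0.18 and 0.31) were not kept for the fit.

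**Figure D5:**
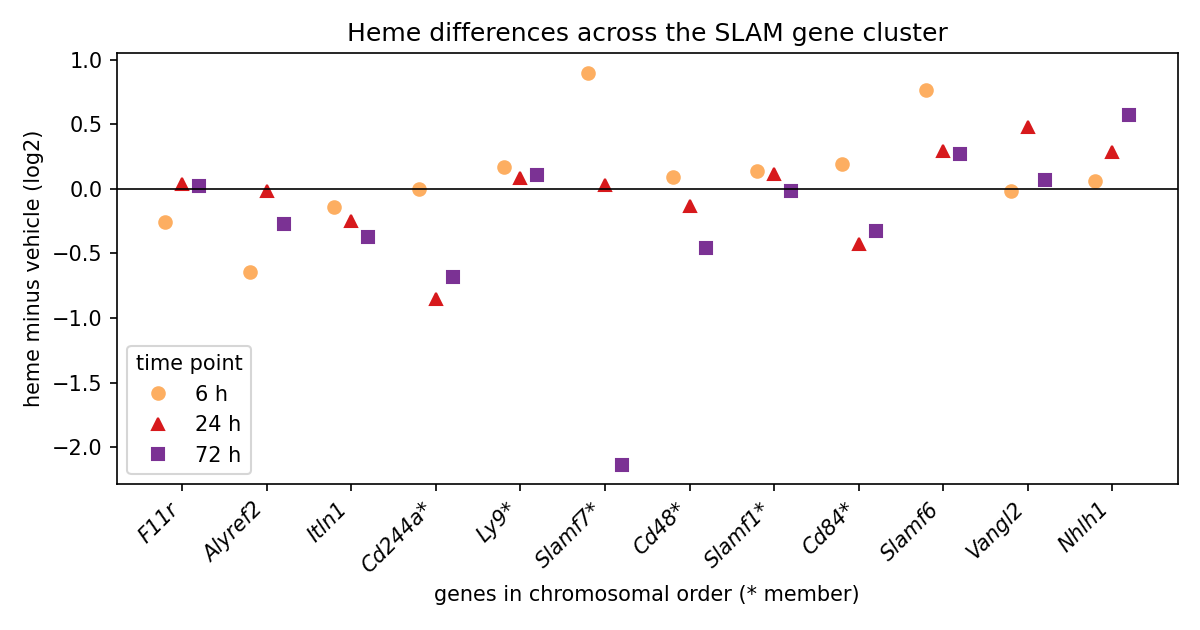
Heme minus vehicle difference in log2 units at 6 h (circles), 24 h (triangles) and 72 h (squares) for genes in chromosomal order across the SLAM cluster, with members starred and positions not to scale. The spread over time is widest for Slamf7, from 0.90 to -2.13, and narrow for its neighbour Ly9, from 0.17 to 0.09.

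Of 28 measured signalling partners 27 were tested, 0 rose and 0 fell over the 3 time points (limma, adjusted p below 0.05), beside 1.13% and 0.59% of all genes, and 6 had an unadjusted p below 0.05, as did 10.6% of all genes. The largest mean differences were those of the Src-family kinase genes Fgr (0.60 ± 0.21) and Src (0.58 ± 0.21), the integrin chain Itgam (0.43 ± 0.27), which pairs with SLAMF7 in phagocytosis, and the oxidase subunit Cybb (0.42 ± 0.06; SD, n = 3 time points each), all higher with heme (limma, adjusted p = 0.0951, 0.107, 0.286 and 0.216). The kinase gene Fyn, a partner of SAP, had differences of -0.51, -0.62 and 0.31, with 2 of its levels below the filter. Sh2d1a, which encodes SAP, and Cd2, a receptor related to the family, lay below the filter on every array. The median difference of the partners was -0.09, 0.01 and 0.25 at 6, 24 and 72 h.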

How the data were processed

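Expression was measured on 6 single-colour arrays, 1 per treatment and time point. Values are on the log2 scale as deposited. The authors used RMA (per the submitters' processing notes), quantile-normalised, with the ArrayStar software (per the series' design text), versions not stated. RMA compresses differences of dim probe sets towards 0. Of 35556 probe sets 21789 named 1 gene in GEO's platform annotation and were used; 21698 of them matched GRCm38.p6 gene identifiers.

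Genes whose highest array reached the median of all values (5.37) were kept (11516). The model, with terms for treatment and time, used the 6 arrays (R 4.3.3, limma 3.58.1, lmFit then eBayes, two-sided p, Benjamini-Hochberg adjustment) and had 2 residual and 7.17 prior degrees of freedom. An interaction could not be tested. Alternatives were other normalizations, level filters, probe set means, an offset, eBayes settings, design terms and leaving out a time pair. Arrays of the same time deviated together (r = 0.562, 0.215 and 0.531). Tables and figures used Python 3.11.15. Levels were not compared between probe sets. A planned protein motif search was not run.

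The members, lists, motifs and rule for named genes were chosen with earlier results of these data known. All members were named; of the partners, those past the test and the 4 with the largest mean differences; of neighbours, the run and 3 genes on either side. F3, Fyn, Bex1, Gpx3, Klra17, Ifi27l2a, Acod1, Il1a and single markers were named after their values were seen.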

Additional observations from a re-analysis of the deposited data

Results flagged for a closer look

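Slamf7 had opposite signs at different time points, with heme higher at 6 h and lower at 72 h, and its highest and lowest heme minus vehicle differences lay 3.03 apart on the log2 scale. Read over time, the 72 h minus 6 h change with heme was below that with vehicle by 3.03 (-3.03). This is the same quantity from the same arrays and no second observation. The sign of the heme difference also turned for Cd48, over a range of 0.55, and for Cd84, over a range of 0.62. Cd244a changed in opposite directions from 6 to 72 h in the treatments, with heme minus vehicle at -0.68. Each rests on 1 array per treatment and time, the differences between time points were not tested, and any small departure from 0 can set a sign. Groups had 1 array each, so no outlying array was looked for within a group.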

How the results depend on the processing

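Leaving out 1 time pair gave 12 to 521 genes changed with heme (198 with all pairs) and 0 to 3 members (1 with all pairs); each such fit had 1 residual degree of freedom, and without the 6 h pair the prior was 46.9, so those p-values rest mostly on the spread shared by all genes. Without the time term 18 genes and 0 members were called with heme. For 72 h against 6 h (759 genes and 3 members), leaving out the 24 h pair gave 412 genes and 1 member, and dropping the treatment term 318 genes and 1 member, Ly9 in both. Slamf7 ranged from -1.05 without the 6 h pair to 0.46 without the 72 h pair. Genes past 2-fold numbered 188, 220 and 214 at 6, 24 and 72 h; the offset of 16 gave 122 at 6 h, a threshold of 1.5-fold gave 1180, 752 and 793, and one of 4-fold gave 24, 49 and 34. After cyclic loess 76.2% of the genes changed with heme were higher, in place of 65.7%, and with the offset 69.7% of those past 2-fold at 6 h were, in place of 59.0%. Of 198 member values recomputed, 187 kept direction and side of the threshold and 8 lost a call. Another 2 gained one (Slamf7 and Cd244a without the 6 h pair) and 1 reversed. Level filters, probe set means, eBayes settings and dropped design terms left the members' differences themselves unchanged. Direction could not turn under those settings, so the count overstates how far the results were tried. The cause of the changes was not tested. Dim signal limits Slamf1 and Slamf8.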

Other observations

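Over both treatments, 2 of the 27 signalling partners tested changed between 6 and 72 h, beside 6.59% of all genes, a share near that of the partners. Fgr, a Src-family kinase of myeloid cells, rose by 1.01 (limma, adjusted p = 0.00891), and Fyn, the kinase that SAP recruits, fell by 0.95 (limma, adjusted p = 0.0429), with 2 of its 6 levels below the filter. The 4 macrophage markers that rose over the same step were the complement receptor gene C5ar1 by 1.95, the phagocytic receptor gene Mertk by 1.33, Cd14 by 0.76 and the growth factor receptor gene Csf1r by 0.74 (limma, adjusted p = 0.00262, 0.00372, 0.0383 and 0.0297).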
